A study of Mus musculus with 3 samples.

Results

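The genes described here are 46 genes of the G2 and M phases of the cell cycle, among them the mitotic cyclins and CDK1, the mitotic kinases, the spindle checkpoint, the kinetochore, the mitotic kinesins and the proteins of cytokinesis. They were taken as a named list, and every probe that matched their symbols on the arrays was used, which gave 64 probes of 55681 on each array and 46 genes of the 20660 that could be named. The samples were NIH3T3 cells, an immortalized mouse embryonic fibroblast line, labelled as WT. They were grown to confluency in DMEM with serum and then collected after 24 h without additions (None), with 20 µM AR7 or with 20 µM BMS614. AR7 is the compound from which the study's activators of chaperone-mediated autophagy were developed, and BMS614 is an antagonist of retinoic acid receptor alpha. The compounds were dissolved in DMSO, and the sources used here do not state whether the None culture received it.

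Each condition had 1 array, hybridized with Cy3-labelled RNA, and differences between arrays are therefore given without a test or p-value. All 3 arrays lay on 1 slide, at different positions, and culture, labelling and position cannot be told apart from the compound. The number of arrays limits the precision. The 75th percentile of the scanner intensity was 692 for None, 780.5 for AR7 and 909 for BMS614, and the share of probes well above background was 55.4%, 61.2% and 61.8%. Of the 12 fibroblast markers 11 were well above background on all 3 arrays, with Postn on none. Markers of other cell types were mixed. Of 5 epithelial markers Cdh1, Krt8 and Krt5 passed that limit on all 3 arrays and Epcam and Krt18 on none, and of 4 endothelial markers Kdr and Pecam1 passed on all, Cdh5 with AR7 only and Tek on none. Of 3 leukocyte markers with a probe Cd3e and Cd79a passed on all and Ptprc with AR7 and BMS614, and of 4 adipocyte markers Pparg and Fabp4 passed on all, Plin1 with AR7 and BMS614 and Adipoq on none. Krt8 gave 7.38 with None, 6.94 with AR7 and 6.62 with BMS614, a log2 difference of -0.76 for BMS614 minus None. In that comparison Krt5 differed by 0.11 and Cdh1 by -0.04. Cdh5 differed by -0.60 for BMS614 minus AR7, a bound, since it was not well above background with BMS614. The part of these markers in the results was not tested.

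Cells that approach division build up the mRNAs of mitosis late in the cycle and lose them after it. Cyclin B with CDK1 drives entry into mitosis. Aurora and Polo kinases and kinesin motors build the spindle, the checkpoint holds anaphase until the kinetochores are attached, and the anaphase-promoting complex with CDC20 then ends it. Many of these genes are repressed in resting cells and switched on in cycling cells through a pair of promoter elements. One is the cell cycle genes homology region (CHR), which binds the MuvB complex with B-Myb or with the pocket proteins, and the other is the CCAAT box, which binds NF-Y. Confluent fibroblasts are largely held in G1 by contact with each other, but how far this held for the cells used here was not tested. The mitotic genes gave strong signals, with a median log2 level of 12.4 beside 7.82 for the whole named set. Of the mitotic genes 97.8% cleared the background limit on every array, and of the whole named set 66.8% did. In cultures such as these, fewer cells in G2 and M and less of the RNA per cell cannot be told apart.

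The promoters of 6 of the genes are shown because they carry these elements, or because the gene differed most between arrays. Kif11 and Kif18a had the largest AR7 differences, Cdc20, Ube2c and Espl1 are anaphase genes, and Cdk1 is the kinase whose signal was level over the arrays. Each is the stretch of 120 bases before the transcript start in RefSeq's GRCm38.p6, read 5′ to 3′ in the direction of transcription. Capitals mark matches on either strand. The CHR reads TTTGAA or TTCAAA, the CCAAT box reads CCAAT or ATTGG, and the capitals in Kif18a mark a letter string of the E2F type.
Kif11 (chr19:37376262-37376381, plus strand): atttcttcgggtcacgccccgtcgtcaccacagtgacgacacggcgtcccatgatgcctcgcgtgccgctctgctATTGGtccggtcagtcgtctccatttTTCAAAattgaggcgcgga
Kif18a (chr2:109280618-109280737, plus strand): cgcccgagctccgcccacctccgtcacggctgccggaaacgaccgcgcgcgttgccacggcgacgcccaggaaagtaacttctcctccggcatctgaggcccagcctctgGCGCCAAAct
Cdc20 (chr4:118437344-118437463, minus strand): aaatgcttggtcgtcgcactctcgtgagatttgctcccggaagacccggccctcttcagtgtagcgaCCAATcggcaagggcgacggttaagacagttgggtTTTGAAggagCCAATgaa
Ube2c (chr2:164769809-164769928, plus strand): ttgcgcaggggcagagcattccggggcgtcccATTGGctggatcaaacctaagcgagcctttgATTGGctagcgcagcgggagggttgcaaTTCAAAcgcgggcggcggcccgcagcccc
Espl1 (chr15:102296173-102296292, plus strand): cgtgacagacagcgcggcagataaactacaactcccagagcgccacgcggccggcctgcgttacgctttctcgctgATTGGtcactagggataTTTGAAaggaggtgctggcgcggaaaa
Cdk1 (chr10:69352913-69353032, minus strand): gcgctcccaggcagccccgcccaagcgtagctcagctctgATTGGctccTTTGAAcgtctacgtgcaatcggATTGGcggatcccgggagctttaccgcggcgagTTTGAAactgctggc
Among the 46 genes, 39 had such a window, taken from 250 bases before to 50 bases after the start. The windows of Ccna2, Incenp, Aurkb, Tpx2, Foxm1, Kif20a and Cdc25c were not used here.

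With AR7 the mitotic genes were nearly all a little lower than in None. The arrays were background corrected and quantile normalized, and each gene is given by its brightest probe as log2 signal. Over the 45 genes with a value the median difference was -0.13 on the log2 scale, or 0.915-fold, and it ranged from -0.28 to 0.12. Of these, 39 were lower, that is 86.7%, where 49.6% of all 14677 named genes tested were lower and their median difference was 0. No mitotic gene reached 1.5-fold with AR7 in either direction, and 3.82% of all genes did. At 1.2-fold 2 genes (4.44%) were lower, Kif11 and Kif18a, where 6.83% of all genes were lower by that much. The shift was thus small and shared, and it did not come from a few genes with large differences.

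The only error that these arrays show is that between spots. Probes printed 10 times on each array gave the SD of a difference between arrays, called the spot SD here, which ran from 0.385 for the dimmest to 0.0494 for the brightest of 10 signal classes in AR7 minus None and had a median of 0.0581 over the mitotic genes. It holds no variation of cultures, labelling or hybridization. With AR7 22 of the 45 genes, or 48.9%, were lower by more than 2 spot SD, against 9.05% of all genes. Higher by that much was 1 gene of the 45, Kif23, and 1356 of all 14677 genes tested. The spot SD had a median of 0.0764 over all genes, so that this limit was mostly wider for them than for the mitotic genes. The median difference was negative in each class of signal from 8 upward, and Ttk was the only tested gene below 8. Genes with a mean log2 signal from 8 to 10 had a median difference of -0.15 (n = 8 genes), those from 10 to 12 of -0.14 (n = 11), those from 12 to 14 of -0.11 (n = 19) and those above 14 of -0.09 (n = 6). All named genes in the same classes had medians between -0.01 and 0.

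With BMS614 the same genes lay around the None values. The median difference was 0.02, or 1.01-fold, with 27 of 46 genes higher, that is 58.7% beside 51.0% of all 14667 genes tested, and a range from -0.20 to 0.30. None reached 1.5-fold, as 4.21% of all genes did. Kif23 alone (2.17%) was higher by 1.2-fold, where 8.90% of all genes were. More than 2 spot SD above None were 6 genes (Kif23, Mki67, Kif22, Tpx2, Anln and Plk1), and 5 were as far below it (Cdc25b, Espl1, Ccnb1, Aurkb and Birc5). These counts come to 13.0% and 10.9% of the genes, beside 12.9% and 12.4% of all genes. The shares for BMS614 were thus close to the background in both directions.

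Set directly against each other at the same dose and time, the BMS614 array was above the AR7 array for most mitotic genes. The median of BMS614 minus AR7 was 0.13, or 1.09-fold, with 39 of 46 genes higher, or 84.8%, beside 50% of all 15283 genes tested, whose median was 0.00. None reached 1.5-fold, as 4.73% of all genes did. At 1.2-fold 4 were higher (Kif11, Kif18a, Kif15 and, by its bound, Cenpf), or 8.70%, beside 8.62% of all genes. More than 2 spot SD higher were 29 genes, or 63.0%, beside 13.4% of all genes. As far lower were 2 of the 46, Kif2c and Incenp, beside 2111 of all 15283 genes tested. These 3 differences are made from 3 arrays and share them, so that AR7 minus None and BMS614 minus AR7 both contain the AR7 array. Counted per array, AR7 was the lowest of the 3 for 34 of the 45 genes well above background on all of them, or 75.6%, beside 32.5% of all genes. The highest array was BMS614 for 26 genes, None for 17 and AR7 for 2 (Incenp and Kif2c).

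**Figure D1:**
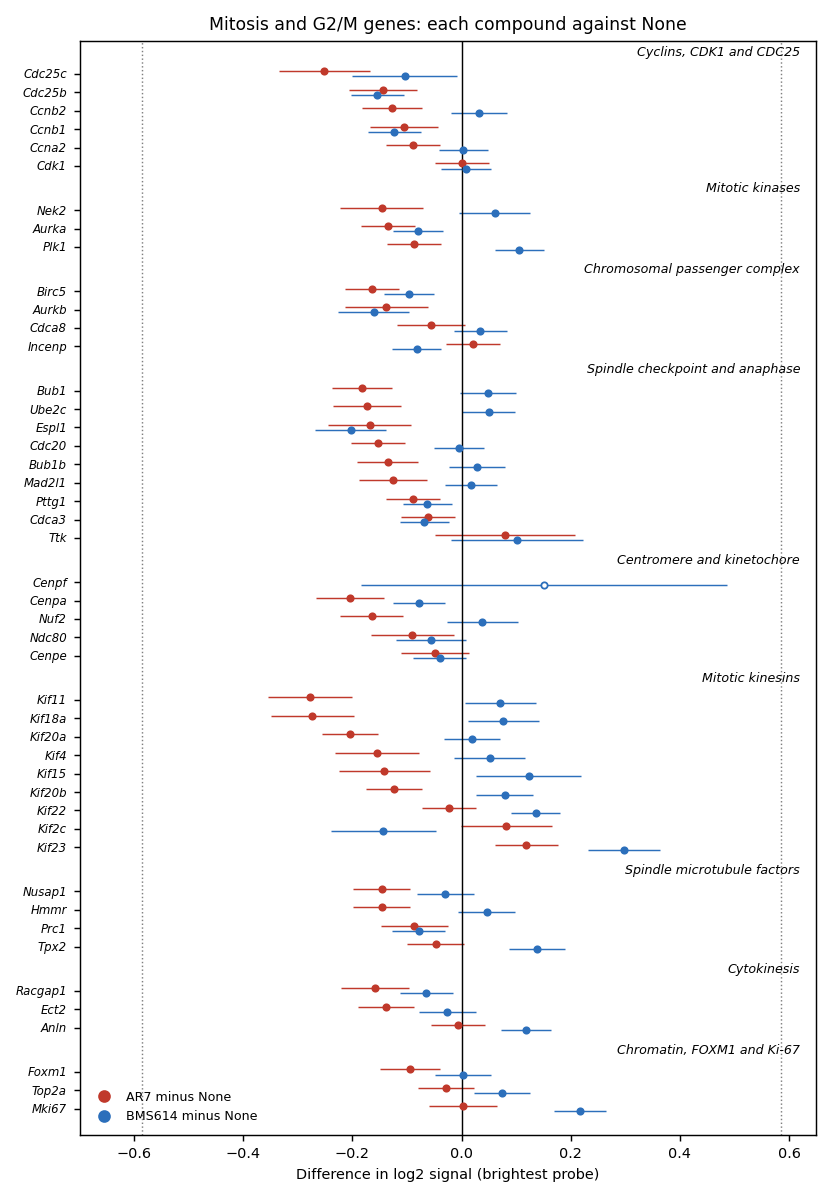
Difference in log2 signal of the brightest probe of each gene for AR7 minus None (red) and BMS614 minus None (blue), in groups by role, with bars of 1 spot SD and dotted lines at 1.5-fold. Red points lie left of 0 for 39 of 45 genes, blue points lie on both sides, and no point reaches a dotted line; the open symbol is Cenpf, which was above background with BMS614 only.

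**Figure D2:**
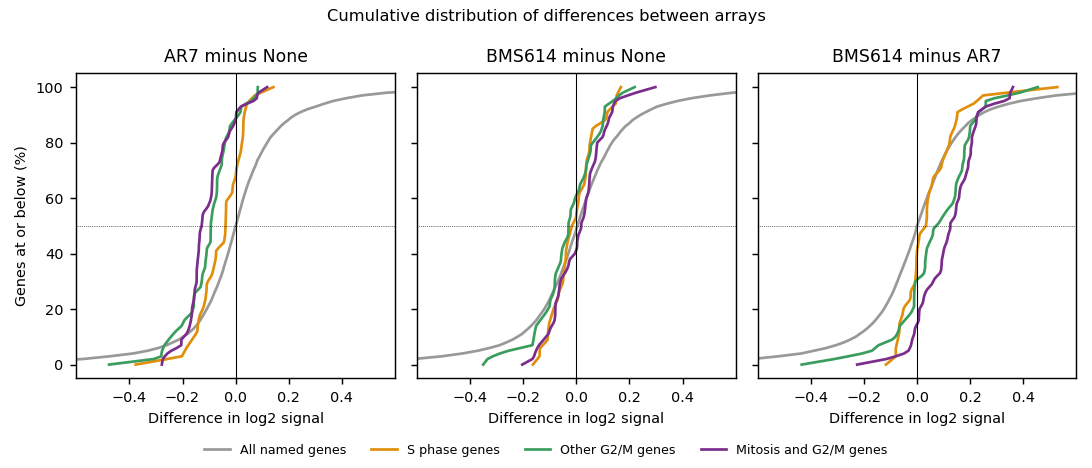
Share of genes at or below each difference in log2 signal for all named genes, S phase genes, other G2/M genes and the mitosis and G2/M genes, in the 3 comparisons of arrays. The curve of the mitotic genes crosses 50% at -0.13 for AR7 minus None, 0.02 for BMS614 minus None and 0.13 for BMS614 minus AR7, and that of all genes crosses near 0 in each.

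The 6 genes of the cyclin and CDK1 group start mitosis. Cdk1, the kinase itself, gave 13.90 with None, 13.91 with AR7 and 13.91 with BMS614, and did not differ by more than 1 spot SD in any comparison. Ccnb1, its cyclin B1, gave 12.81, 12.70 and 12.69 in the same order of arrays, which is kept below. Ccnb2 gave 11.70, 11.57 and 11.73. Ccnb1 and Ccnb2 therefore lay below None with AR7, at -1.69 and -2.31 spot SD, while their kinase stayed level. Ccna2, cyclin A2 of S phase and early mitosis, gave 13.82, 13.73 and 13.82, or -1.81 spot SD with AR7. Cdc25b and Cdc25c are phosphatases that remove the inhibitory phosphates from CDK1. Cdc25b gave 13.01, 12.86 and 12.85, lower with both compounds by 0.14 and 0.15. Cdc25c gave 8.81, 8.56 and 8.71, and its AR7 difference of -0.25 was exceeded in size only by those of Kif11 and Kif18a. Over this group the median difference was -0.12 with AR7, where 5 of 6 genes were lower, and -0.05 with BMS614.

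Plk1, Aurka and Nek2 are kinases of the centrosome and spindle. Plk1, Polo-like kinase 1, gave 14.12, 14.04 and 14.23, so that it was lowest with AR7 and highest with BMS614. Aurka gave 13.93, 13.79 and 13.85. Nek2, which acts in centrosome separation, gave 10.29, 10.15 and 10.36. All 3 were lower with AR7, with a median of -0.13, and Plk1 and Nek2 were higher than None with BMS614.

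Aurora B, INCENP, survivin and borealin form the chromosomal passenger complex, which corrects faulty attachments at the centromere. Aurkb gave 10.04, 9.90 and 9.88, lower with AR7 by 0.14 and with BMS614 by 0.16. Birc5, which encodes survivin, gave 15.92, 15.76 and 15.82. These members were below None on both treated arrays. Cdca8, which encodes borealin, gave 13.61, 13.55 and 13.64, and Incenp, the scaffold, gave 14.71, 14.73 and 14.62. Incenp was 1 of only 2 genes that were highest on the AR7 array. The group's median was -0.10 with AR7 and -0.09 with BMS614.

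The checkpoint and anaphase group holds 9 genes, 8 of them lower with AR7 and 6 by more than 2 spot SD. Bub1 and Bub1b are checkpoint kinases at the kinetochore. Bub1 gave 11.47, 11.29 and 11.52, and Bub1b gave 11.43, 11.29 and 11.46. Mad2l1, the MAD2 protein that inhibits CDC20, gave 13.43, 13.30 and 13.44. All of these checkpoint genes were lower with AR7, and with BMS614 they were within 1 spot SD of None. Ttk, the kinase MPS1 at the top of the checkpoint, gave 7.35, 7.43 and 7.45 and was the dimmest gene measured on all 3 arrays. It was the exception in this group, and its differences lay within 1 spot SD.

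Cdc20, the activator of the anaphase-promoting complex, gave 14.77, 14.62 and 14.77. Ube2c, the ubiquitin-conjugating enzyme of that complex, gave 13.52, 13.34 and 13.57. Both were lower with AR7, by 0.15 and 0.17, and close to None with BMS614. Espl1 is separase, the protease that cuts cohesin, and Pttg1 is securin, its inhibitor. Espl1 gave 10.19, 10.02 and 9.99, with differences of -0.17 for AR7 and -0.20 for BMS614, and was the gene furthest below None with BMS614. Pttg1 gave 14.98, 14.89 and 14.92. Cdca3, an F-box-like protein that promotes the destruction of the WEE1 kinase, gave 13.84, 13.78 and 13.78. Separase and securin were thus both lower than None with either compound, and with BMS614 the difference from None was -0.01 for Cdc20 and 0.05 for Ube2c.

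Bub1 is the only one of these genes whose probe was printed 10 times, so that its spots can be compared within and between arrays. Over the spots not marked as outliers the log2 signal ran from 11.36 to 11.59 on None (median 11.46, 9 spots), from 10.92 to 11.47 with AR7 (median 11.29, 10 spots) and from 11.43 to 11.62 with BMS614 (median 11.48, 9 spots). The ranges overlap, since spots at different places on an array also differ from each other. At the 9 positions read on all arrays, the AR7 spot was below the None spot at 9, by a mean of -0.14 ± 0.0573 (SD over spots), and the BMS614 spot was above the AR7 spot at 9, by 0.19 ± 0.0433. BMS614 was above None at 8 of the 9, by 0.05 ± 0.0447. The array means differ by -0.18, further from 0 than the paired mean, because the lowest AR7 spot, at 10.92, has no usable partner on the other arrays. The spots of 1 array are not replicates of the condition.

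**Figure D3:**
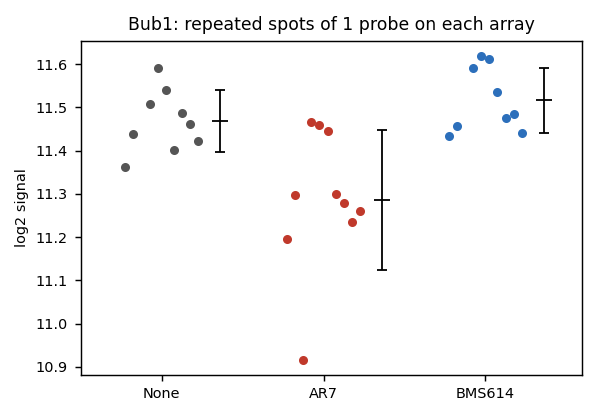
Log2 signal of the repeated spots of the Bub1 probe on the None, AR7 and BMS614 arrays, without outlier spots, in the same left-to-right order of array positions, with the mean and SD of the spots beside them. The AR7 spots have a median of 11.29, below 11.46 on None and 11.48 with BMS614, and the lowest of them lies at 10.92.

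The centromere and kinetochore genes link chromosomes to microtubules. Cenpa, the histone H3 variant that marks the centromere, gave 12.76, 12.55 and 12.68. Nuf2 and Ndc80 are subunits of the NDC80 complex, which holds the microtubule end. Nuf2 gave 10.75, 10.59 and 10.79, and Ndc80 gave 10.02, 9.93 and 9.96. Cenpe, the kinetochore kinesin, gave 13.02, 12.96 and 12.97. All 4 were lower with AR7, Cenpa and Nuf2 by more than 2 spot SD. Cenpf, a large kinetochore protein, was well above background with BMS614 only, at 4.78, against 4.63 on None and 4.42 with AR7. It therefore has no AR7 minus None value. Its BMS614 signal was at least 0.15 above None and at least 0.36 above AR7 on the log2 scale, each less than 1 spot SD at so low a signal.

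Among the 9 mitotic kinesins were the largest AR7 differences in both directions. Kif11 encodes Eg5, the motor that pushes the spindle poles apart, and Kif18a encodes a motor that dampens chromosome movement at the metaphase plate. Kif11 gave 10.04 with None, 9.76 with AR7 and 10.11 with BMS614, or 0.825-fold with AR7 and 1.27-fold for BMS614 over AR7. Kif18a gave 9.79, 9.52 and 9.87, or 0.827-fold and 1.27-fold. Both had the AR7 array lowest, with differences of -3.63 and -3.58 spot SD from None, and BMS614 above it by 5.26 and 5.27 spot SD. Kif20a, a motor of the central spindle, gave 11.91, 11.71 and 11.93, a difference of -3.97 spot SD with AR7. Kif20b gave 12.34, 12.21 and 12.42, and Kif4, the chromokinesin KIF4A, gave 9.92, 9.77 and 9.98. Kif15, which shares the task of Eg5, gave 9.10, 8.96 and 9.22. The pattern of AR7 lowest and BMS614 highest was common to these 6 motors.

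Kif22, the chromokinesin Kid, gave 13.67, 13.65 and 13.80, close to None with AR7 and 0.14 higher with BMS614. Kif23, the motor subunit of centralspindlin, gave 10.88, 11.00 and 11.18. It was the only mitotic gene more than 2 spot SD higher with AR7, and the difference of 0.30 with BMS614 (1.23-fold, 4.57 spot SD) was the largest of any gene against None in that direction. Kif2c, the microtubule depolymerase MCAK, gave 9.43, 9.51 and 9.29 and went the other way, highest with AR7 and lowest with BMS614. Over the kinesins the median was -0.14 with AR7 (7 of 9 lower), 0.08 with BMS614 (8 of 9 higher) and 0.21 for BMS614 minus AR7 (8 of 9 higher, each by more than 2 spot SD).

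Tpx2, Nusap1, Prc1 and Hmmr bind and order spindle microtubules. Tpx2, the activator of Aurora A, gave 12.18, 12.13 and 12.32. Nusap1 gave 12.59, 12.44 and 12.56, and Hmmr gave 12.50, 12.35 and 12.55. Prc1, which bundles the microtubules of the central spindle, gave 13.52, 13.43 and 13.44. All 4 were lower with AR7, and all 4 were higher with BMS614 than with AR7. In cytokinesis Racgap1 pairs with Kif23 in centralspindlin and Ect2 activates RhoA at the cleavage furrow. Racgap1 gave 13.36, 13.20 and 13.29. By their brightest probes the partners of centralspindlin thus differed from None in opposite directions with each compound. For Racgap1 with BMS614 the difference was -1.34 spot SD, and its second probe lay within 1 spot SD of None with either compound. Ect2 gave 12.03, 11.89 and 12.01. Anln, the furrow scaffold anillin, gave 13.98, 13.97 and 14.10, level with AR7 and 0.12 above None with BMS614.

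Top2a, Foxm1 and Mki67 are widely read as markers of proliferation. Top2a, the topoisomerase that untangles chromosomes, gave 11.97, 11.94 and 12.04. Foxm1, a transcription factor of G2/M genes, gave 11.70, 11.61 and 11.70. Mki67, which encodes the Ki-67 antigen that coats mitotic chromosomes, gave 13.49, 13.49 and 13.70. None of the 3 was lower with AR7 by more than 2 spot SD. Mki67 was level with AR7 and higher with BMS614 by 0.22 (1.16-fold, 4.48 spot SD), and its second probe read 12.79, 12.85 and 12.96, higher by 0.16.

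A further 18 probes covered 14 of the genes and give another view of the same RNA on the same arrays. With AR7 14 of the 17 with a value were lower (median -0.11), with BMS614 7 of 18 were higher (median -0.04), and BMS614 was above AR7 for 11 of 18 (median 0.07). Their sign matched that of the brightest probe 14, 13 and 13 times. With AR7 the probes of Incenp, Pttg1 and Kif2c disagreed in sign. Incenp's second probe gave 14.43, 14.41 and 14.40, and that of Pttg1 gave 7.50, 7.51 and 7.46. Kif2c's second probe gave 9.45, 9.33 and 9.33, lower by 0.12 with AR7 where the brightest was 0.08 higher. The opposite direction of Kif2c thus rests on 1 of its 2 probes.

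For BMS614 the sign of several genes depended on the probe. Cdca8's second probe gave 10.30, 10.16 and 10.15, and Tpx2's gave 8.02, 7.88 and 7.97. Foxm1's second, dimmer probe gave 7.33, 7.21 and 7.13. Each of these second probes lay below None with BMS614 where the brightest lay above it or level. Birc5's dimmest probe gave 11.38, 11.31 and 11.43, and was higher with BMS614 where the others were lower. Mad2l1's further probes gave 9.61, 9.42 and 9.54, and 8.95, 8.86 and 9.22, on either side of None with BMS614. All probes of Birc5, Ccnb1, Cdca8, Foxm1, Mad2l1, Nuf2, Racgap1, Tpx2 and Ube2c were lower with AR7 than with None. The sizes could differ between probes. Ube2c's brightest probe differed by -0.17 and its second by -0.04 (-0.65 spot SD). Racgap1's brightest differed by -0.16 and its second by -0.02 (-0.35 spot SD).

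Only 1 mitotic probe of 64 passed 1.5-fold, a further, dim probe of Cdk1. It gave 4.47 with None, where it was not well above background, 4.35 with AR7 and 5.67 with BMS614, at least 1.17 above None and 1.32 above AR7 on the log2 scale. The other probes of Cdk1 read 13.90, 13.91 and 13.91, and 10.76, 10.81 and 10.86. The brighter probes of the gene thus did not show the difference of the dim one.

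Scaling on spike-in controls moved where 0 lies for all genes together. When the arrays were scaled on 8 such controls, the median of all genes moved to 0.13 with AR7 and 0.31 with BMS614, and that of the mitotic genes to -0.00 and 0.32. Relative to the median of all genes, AR7 minus None was -0.13 for the mitotic genes under that scaling too, with 24 of 45 below 0 before that median is taken off. Taken relative to all genes, 39 of the 45 were lower with AR7 under each of 7 settings of background, scaling and probe choice and 2 were higher in each. For BMS614 minus None 21 were higher and 20 lower in each, and for BMS614 minus AR7 36 were higher and 4 lower. In both of these comparisons Cenpf was counted as higher from the 6 settings that gave it a value.

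Other genes of the cell cycle were set beside these as lists. A list of 45 further G2/M genes (centromere proteins, condensins, spindle proteins and others) had probes for 44, all well above background on all 3 arrays. With AR7 39 of the 44 were lower, with a median of -0.09 and a range from -0.48 to 0.08, and 11 were lower by more than 2 spot SD, where 9.05% of all genes were. With BMS614 17 were higher and 27 lower (median -0.03), and BMS614 was above AR7 for 30 of 44 (median 0.07). Of 35 genes of DNA replication and S phase 23 were lower with AR7 and 11 higher (median -0.04), with a median of -0.02 with BMS614. By more than 2 spot SD, 9 of the 35 were lower with AR7 and 1 was higher. By their median the S phase genes lay between the G2/M genes and all genes in the AR7 comparison. The count lower by more than 2 spot SD did not separate them from the further G2/M genes, at 9 of 35 beside 11 of 44. The difference between lists was not tested. No gene of either list reached 1.5-fold.

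The regulators that bind the promoter elements lay on both sides of None. Of 19 genes for MuvB, B-Myb, pocket proteins, E2F and NF-Y, 9 were lower and 10 higher with AR7 (median 0.01), and the median was 0.01 with BMS614. Of the 16 genes of the anaphase-promoting complex with a value 9 were lower and 7 higher with AR7 (median -0.01), and the median with BMS614 was -0.04. None of these genes reached 1.5-fold. Mybl2, the gene of B-Myb and itself a cell cycle gene, was chosen after its value was seen and gave 12.23, 12.22 and 12.22. The fibroblast markers well above background had a median of 0.01 with AR7 and 0.08 for BMS614 minus AR7, where 11 of 11 were higher. The part of that in the mitotic difference between BMS614 and AR7 was not tested.

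The promoters of the mitotic genes share letters that the choice of genes did not use. TTTGAA, searched on both strands over the window from 250 bases before to 50 after the start, was found in 28 of 39 genes, or 71.8%, beside 17.5% of the 16374 genes on the arrays with a window. It was in 60% of the other G2/M genes and in 14.8% of the S phase genes. CCAAT on either strand was also found in 28 of 39, beside 42.1% of all array genes, and several times in 19, or 48.7%, beside 14.4%. CCAAT was in 71.4% of the other G2/M genes, several times in 42.9%, and in 63.0% of the S phase genes, several times in 37.0%, so that it was common in all 3 lists. Both were present in 23, or 59.0%, beside 8.13%. Neither string contains the other. Strings of the E2F type (TTT, then CCC, GGC, GCC or CGC, then GC) were found in 3 (Cdk1, Kif15 and Kif18a), or 7.69%, beside 3.41% of all array genes and 40.7% of the S phase genes.

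The matches also had preferred places. With 1 window per gene, 37 matches of TTTGAA had their median at base 3 after the start, and 75.7% of them lay from 50 bases before the start onward, where 24.9% of the matches in all windows did. The 65 matches of CCAAT had their median 68 bases before the start, written -68, and 66.2% lay within the 100 bases before it, where 44.2% of the matches in all windows did. In the sequences printed above, Kif11, Cdc20, Ube2c, Espl1 and Cdk1 have the CHR downstream of a CCAAT box, and Kif18a has neither. A match of letters does not show that a factor binds there.

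**Figure D4:**
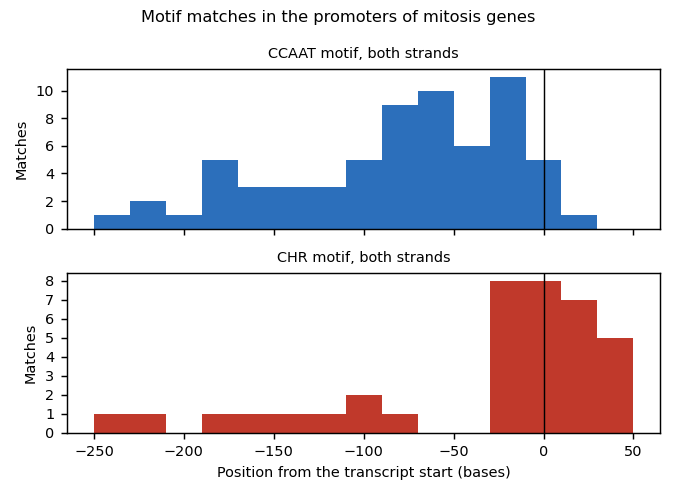
Number of matches of CCAAT (blue) and of the CHR letters TTTGAA (red) on both strands, by position from the transcript start in bases, in the windows of 39 mitotic genes. The 37 CHR matches crowd around and after the start, and the 65 CCAAT matches lie mostly in the bases before it.

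The differences were also set out by which of these letters a window holds, in classes of few genes and with no test. The median of AR7 minus None was -0.13 for the 22 genes with both elements and a value, -0.09 for the 5 with TTTGAA only, -0.14 for the 5 with CCAAT only and -0.16 for the 6 with neither, all of which were lower. Kif18a and Kif11, which had the largest AR7 differences, stand on either side of this division. For BMS614 minus None the medians in the same order of classes were 0.03 (23 genes), 0.08, -0.04 and -0.01, and for BMS614 minus AR7 they were 0.15, 0.12, 0.01 and 0.13. Across all array genes the AR7 minus None medians were -0.01 for the 896 genes with both, of which 54.7% were lower, and 0.00 for the 5704 with neither, of which 48.1% were lower.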

How the data were processed

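RNA of 3 NIH3T3 cultures, grouped by the treatment in their labels, was measured on one-colour Agilent mouse arrays. The authors deposited spot intensities from the scanner software, with no normalization between arrays, together with a value table, each column of which is a linear function of the background-subtracted intensity of its array (Pearson r = 1 over its probes; column medians 65.0 for None, 70.7 for AR7 and 67.5 for BMS614) and served only as an alternative, floored at 16. Its scaling between arrays is not given in the sources used here. Per the labels, the submitters used oligo and RMA.

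From the scanner files, the RMA convolution background was applied to the median pixel intensity of each spot on each array, since the mean pixel intensity assumed in the design was not used here, followed by quantile normalization over the 3 arrays and log2 (R 4.3.3, limma 3.58.1). Control spots and outlier spots were dropped, and spots of a probe were averaged. Python 3.11.15, numpy 2.4.6, pandas 2.3.3 and matplotlib 3.10.9 did the rest. RefSeq accessions of GRCm38.p6 named 27235 of 55681 probes. A gene is its probe with the highest mean signal, used where that probe was well above background on at least 1 array of a pair. Where the lower array was below background, the difference is a bound against the higher of the probe's own signal there and the lowest signal well above background on that array. A fold of 1.5 (log2 0.585) was the call. The steps were tested on simulated data. The members, their roles and the other lists were chosen with earlier results of these data known. Genes of the other lists are named only past 1.5-fold, and Mybl2 lies outside that rule, as do markers.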

Additional observations from a re-analysis of the deposited data

How the results depend on the processing

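No paired analysis was possible because there was 1 array a condition. For the same reason no replicate was left out, and with 1 slide for all 3 arrays there was no block. Low signal over background limits Cenpf and the dim Cdk1 probe.

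The count of mitotic genes past 1.5-fold was 0 in each comparison with the scanner's processed signal under 75th percentile scaling, normexp, 75th percentile scaling of the RMA background, the deposited table, both filters on dim probes, the mean over all probes and a 2-fold threshold. A 1.2-fold threshold gave 2 genes for AR7 minus None, 1 for BMS614 minus None and 4 for BMS614 minus AR7, and spike-in scaling gave 1 for BMS614 minus None and 0 for the other comparisons. The median of AR7 minus None stayed between -0.1354 and -0.1231, except with spike-in scaling, where it was -0.001356 and the median of all genes was 0.1313. The median of BMS614 minus None, 0.01826, changed sign with the processed signal (-0.005657) and the deposited table (-0.002627). With the processed signal 21 of 46 mitotic genes were higher in that comparison. Under spike-in scaling all 46 were higher, with a median of 0.3173, where that of all genes was 0.31. The median of BMS614 minus AR7 was 0.1433 with the processed signal and 0.3119 with spike-in scaling, where that of all genes was 0.1769, and the other settings gave the same direction. The cause of these shifts was not tested.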
